A study of Mus musculus with 6 samples.

Results

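The Iroquois homeobox genes Irx1, Irx2, Irx3, Irx4, Irx5 and Irx6 were followed in mouse embryoid bodies (EBs) before and after the addition of retinoic acid (RA). They were chosen by symbol among the 19938 genes measured, and each of the 6 had 1 probe set, a group of probes on the array whose values are summarised as 1 value per gene. EBs are floating aggregates in which embryonic stem (ES) cells leave the pluripotent state, and here they were made from R1 mouse ES cells, an established cell line, in medium without Lif, the cytokine that holds ES cells in that state. RA at 2 μM was added when the EBs were 4 days old. Day 0 stands for EBs taken when RA was added, and days 3 and 4 for EBs kept with it for that many days, each with 2 Affymetrix Mouse Gene 1.0 ST arrays. All came from the same cell line. Untreated EBs as old as those of days 3 and 4 were not analysed here, and the effect of RA cannot be told apart from that of longer culture. The study describes a repeat of the EB procedure for days 0 and 4, but the array labels give only a number, so the p-values refer to the spread of 2 arrays per day, part or all of which may be technical.

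Iroquois genes encode transcription factors of the TALE class, whose homeodomain carries extra residues in a loop, and are named after a gene complex that patterns bristles in the fly. In the mouse they lie in 2 clusters of 3, IrxA with Irx1, Irx2 and Irx4 on chromosome 13 and IrxB with Irx3, Irx5 and Irx6 on chromosome 8, which arose by duplication, so that Irx1 pairs with Irx3, Irx2 with Irx5 and Irx4 with Irx6. They set up territories in the neural plate and spinal cord, in the heart, the nephron and the limb, and RA is among the signals that act on the tissues in which they are used. Irx3 and Irx5, which share enhancers and much of their expression in the embryo, rose to a maximum at day 3 and were lower again at day 4. Irx4, best known as a factor of the ventricular heart muscle, was lowest at day 3, Irx1 and Irx2 rose by small amounts, and Irx6 did not pass the test in any comparison.

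All values are intensities on the log2 scale after Robust Multichip Average (RMA) normalization, and a difference of 1 is a 2-fold change. Tests were made with limma across all genes, with the Benjamini-Hochberg adjustment, and a gene was said to rise or fall at an adjusted p of 0.05 or below. This threshold was passed by 51.9% of all genes between day 3 and day 0, by 51.5% between day 4 and day 0 and by 28.1% between day 4 and day 3. The 2 arrays of a day correlated at 0.9986 or above (Pearson's r over genes, none of which is a replicate) and arrays of different days at 0.953 to 0.994. Of the genes that passed, 45.9%, 50.2% and 56.4% were higher in these 3 comparisons. Centring each array on the median of all probe sets made this 42.5%, 64.6% and 86.5% and shifted the median of all genes from −0.05, 0.00 and 0.05 to −0.07, 0.11 and 0.18. Centring on the median of the tested genes made it 31.4%, 30.7% and 42.4%, with medians of −0.15, −0.15 and 0.00. Changes of up to about that size therefore have no settled direction. In EBs, a change of cell composition and a change of RNA per cell cannot be told apart.

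The promoters of Irx3, Irx2 and Irx4 are shown because only these 3 of the 6 were among the promoter sequences available. They were not chosen by the behaviour of the genes, and no link between sequence and change was tested. The sequences are the 250 bases before the start of the gene in RefSeq (build GRCm38.p6), read 5′ to 3′ on the strand of the gene, and capitals mark CpG dinucleotides. They were found for 3 of the 6 genes, at chr8:91801655-91801904 on the minus strand for Irx3, at chr13:72628570-72628819 on the plus strand for Irx2 and at chr13:73260247-73260496 on the plus strand for Irx4.
Irx3: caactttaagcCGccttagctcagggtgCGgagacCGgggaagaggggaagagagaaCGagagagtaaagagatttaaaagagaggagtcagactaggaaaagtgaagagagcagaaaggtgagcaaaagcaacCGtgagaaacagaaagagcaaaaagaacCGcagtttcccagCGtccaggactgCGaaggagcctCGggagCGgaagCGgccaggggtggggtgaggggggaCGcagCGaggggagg
Irx2: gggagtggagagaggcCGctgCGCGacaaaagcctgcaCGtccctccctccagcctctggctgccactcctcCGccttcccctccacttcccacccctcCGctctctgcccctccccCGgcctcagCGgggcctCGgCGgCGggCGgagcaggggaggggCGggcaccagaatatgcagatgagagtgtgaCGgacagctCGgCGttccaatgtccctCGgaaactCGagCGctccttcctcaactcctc
Irx4: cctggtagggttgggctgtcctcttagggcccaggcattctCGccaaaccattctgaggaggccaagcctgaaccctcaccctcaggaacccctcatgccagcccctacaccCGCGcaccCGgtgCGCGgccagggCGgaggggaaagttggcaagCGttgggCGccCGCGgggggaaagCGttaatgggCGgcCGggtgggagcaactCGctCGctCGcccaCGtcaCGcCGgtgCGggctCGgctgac
The stretches held 13 CpG in Irx3, 19 in Irx2 and 22 in Irx4, against a median of 6 over 32851 promoters, 31.5%, 19.7% and 14.8% of which held at least as many. Their GC content was 56.0%, 68.4% and 68.8%, against a median of 52.4%. The half-site AGGTCA that retinoid and other nuclear receptors bind was searched on both strands and was in none of the 3 windows, while 14.0% of all promoters held it. The GC box GGGCGG, searched in the same way, occurred 2 times each in Irx2 and Irx4 and was absent from the window of Irx3, while 32.7% of all promoters held it. These counts describe the letters of a short window and not the binding of any factor.

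Irx5, a homeodomain factor of limb, heart and retina, had the largest change from day 0 of the 6 genes at both days. The day 0 arrays of its probe set (10573910) read 6.36 and 6.69, those of day 3 read 7.86 and 7.75, and those of day 4 read 7.20 and 7.09. Both day 3 arrays were above both day 4 arrays, which were above both day 0 arrays. The rise from 6.52 ± 0.23 at day 0 to 7.80 ± 0.08 at day 3 (mean ± SD, n = 2) was 1.28 on the log2 scale (SE 0.11, 95% interval 1.02 to 1.54), or 2.43-fold (limma, adjusted p = 5.09e-05). At day 4 the mean was 7.15 ± 0.08. The level had fallen by 0.66 since day 3 (SE 0.11, adjusted p = 0.00559) and remained 0.63 above day 0 (SE 0.11, 1.54-fold, adjusted p = 0.00205). Of all genes, 5.80% differed by at least as much as Irx5 between day 3 and day 0, and 2.69% between day 4 and day 3.

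Irx3, which marks neural progenitors of the spinal cord dorsal to those that make motor neurons and acts in the conduction system of the heart, ran alongside Irx5. The probe set (10580577) read 7.43 and 7.12 on the day 0 arrays, 8.19 and 8.29 on those of day 3 and 7.59 and 7.52 on those of day 4. The day 3 arrays were again the highest, and the day 4 arrays lay just above the higher day 0 array. From 7.27 ± 0.22 at day 0 the mean rose by 0.97 to 8.24 ± 0.07 at day 3 (SE 0.10, 95% interval 0.73 to 1.21, 1.96-fold, limma, adjusted p = 0.000143). It then fell by 0.69 to 7.55 ± 0.05 at day 4 (SE 0.10, adjusted p = 0.00346). The difference between day 4 and day 0 was 0.28, with an interval of 0.04 to 0.52, and did not pass (adjusted p = 0.0518). It passed without day 0 replicate 1, where it was 0.44 (adjusted p = 0.00459), and with 3 other settings. The intervals of the Irx3 and Irx5 changes from day 0 to day 3 overlapped, and the difference between the 2 genes was not tested.

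A rise from day 0 to day 3 that passed, followed by a fall to day 4 that passed, was found for 1107 of the 19938 genes (5.55%). The 2 comparisons share the day 3 arrays, so an error in those arrays would move both. Irx3 and Irx5 both had this pattern, and Irx6, the third gene of their cluster, did not.

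Irx6, a factor of retinal bipolar neurons, stayed low. It read 5.70 and 5.97 on the day 0 arrays, 5.68 and 5.80 on those of day 3 and 5.82 and 5.87 on those of day 4 (probe set 10573916), and the days overlapped except for days 3 and 4. Its mean over the 6 arrays was 5.81 with an SD of 0.11, which is within the limits of the study's methods for undetectable genes (intensity below 6 and SD below 0.3), as for 30.2% of all genes. The change was −0.10 at day 3 (95% interval −0.31 to 0.12, adjusted p = 0.417) and 0.01 at day 4 (−0.21 to 0.23, adjusted p = 0.947). Differences between dim probe sets are understated by RMA, and small changes of Irx6 could be missed. The other 5 genes had means above 6.

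**Figure D1:**
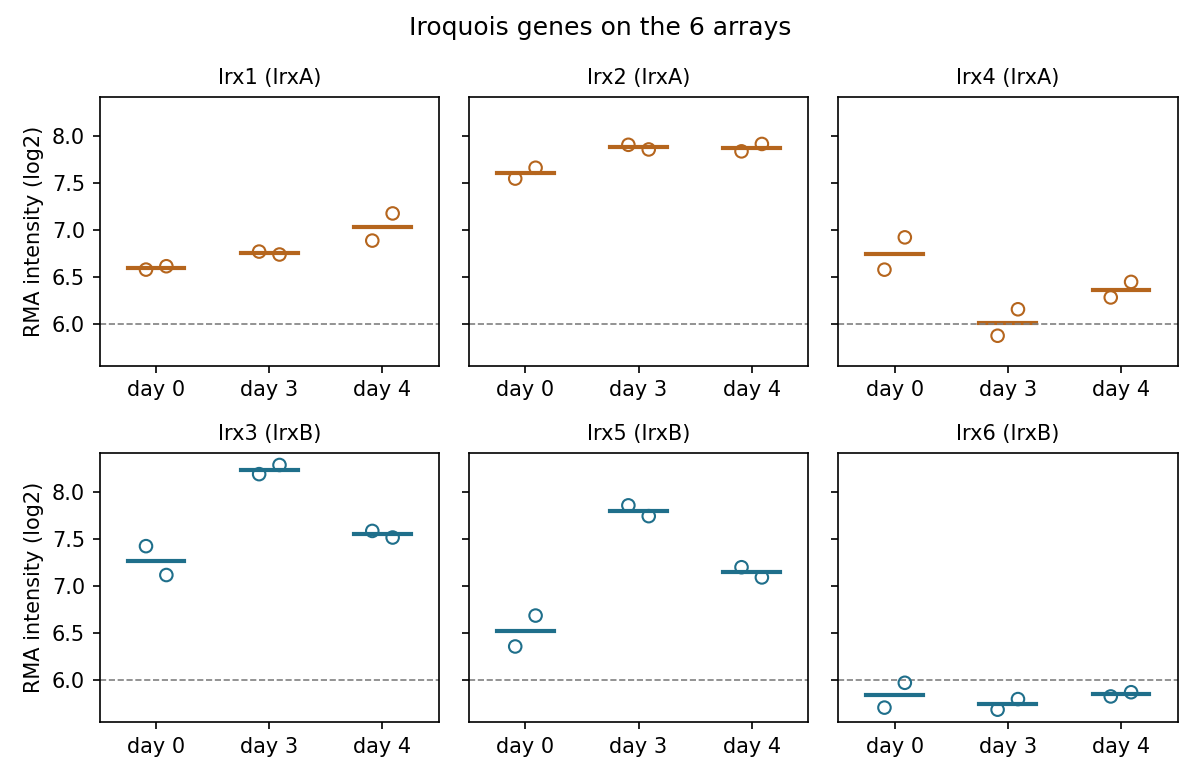
RMA intensity (log2) of the 6 Iroquois genes on each array, with 2 open circles per day, a bar for their mean and a dashed line at 6, the intensity limit of the study for undetectable genes. Irx3 and Irx5 stood highest at day 3 (8.24 and 7.80), Irx4 stood lowest at day 3 (6.01), and Irx6 was below 6 on every array.

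In the IrxA cluster, Irx4 moved the other way. It read 6.58 and 6.92 on the day 0 arrays, 5.87 and 6.15 on those of day 3 and 6.28 and 6.44 on those of day 4 (probe set 10406017). Both day 3 arrays were below all other arrays, and 1 of them was under 6. The mean fell by 0.74, from 6.75 ± 0.24 at day 0 to 6.01 ± 0.20 at day 3 (SE 0.14, 95% interval −1.06 to −0.42, 1.67-fold, limma, adjusted p = 0.00286). At day 4 it was 6.36 ± 0.12, which was 0.35 above day 3 (SE 0.14, adjusted p = 0.0970) and 0.39 below day 0 (log2 change −0.39, adjusted p = 0.0483). The call against day 0 was just within the threshold and was lost without day 0 replicate 2 (adjusted p = 0.253), day 4 replicate 1 (0.214) or day 4 replicate 2 (0.0739). It was also lost with centring on all probe sets (0.0986) and when all probe sets were tested together (0.108). Of all genes, 5.76% fell from day 0 to day 3 and rose to day 4 with both changes past the threshold. Irx4 was not among them, but its rise from day 3 to day 4 passed with the replicate number as a block (adjusted p = 0.0119), with centring on all probe sets (0.0165) and with robust moderation on an intensity trend (0.0423).

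Irx1, which is expressed in neural, lung and kidney epithelium, had a higher mean at each later day. It read 6.58 and 6.61 on the day 0 arrays, 6.77 and 6.74 on those of day 3 and 6.89 and 7.18 on those of day 4 (probe set 10410501), with no overlap between the days. Day 4 was 0.44 above day 0 (SE 0.09, 95% interval 0.22 to 0.65, 1.35-fold, limma, adjusted p = 0.00549). The steps on either side of day 3 did not pass, at 0.16 from day 0 to day 3 (adjusted p = 0.197) and 0.28 from day 3 to day 4 (adjusted p = 0.0634). The second step was 0.42 without day 4 replicate 1 (adjusted p = 0.0133) and 0.13 without day 4 replicate 2 (0.227), and it passed with 3 other settings. The SD at day 4, 0.20, was the widest of the days.

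Irx2, often expressed together with Irx1, read 7.55 and 7.66 on the day 0 arrays, 7.91 and 7.86 on those of day 3 and 7.84 and 7.92 on those of day 4 (probe set 10406005). All 4 arrays after RA lay above the day 0 arrays, and those of days 3 and 4 overlapped. The rise was 0.28 at day 3 (SE 0.06, 1.21-fold, limma, adjusted p = 0.00805) and 0.27 at day 4 (SE 0.06, 1.21-fold, adjusted p = 0.00863). Days 4 and 3 differed by −0.01, with an interval of −0.16 to 0.14. The rise at day 3 was lost without day 3 replicate 1 (adjusted p = 0.0503), and the rise at day 4 without day 0 replicate 1 (0.0535) or day 4 replicate 2 (0.0545). With centring on the tested genes the rises were 0.18 and 0.13 and did not pass (adjusted p = 0.0574 and 0.148).

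**Figure D2:**
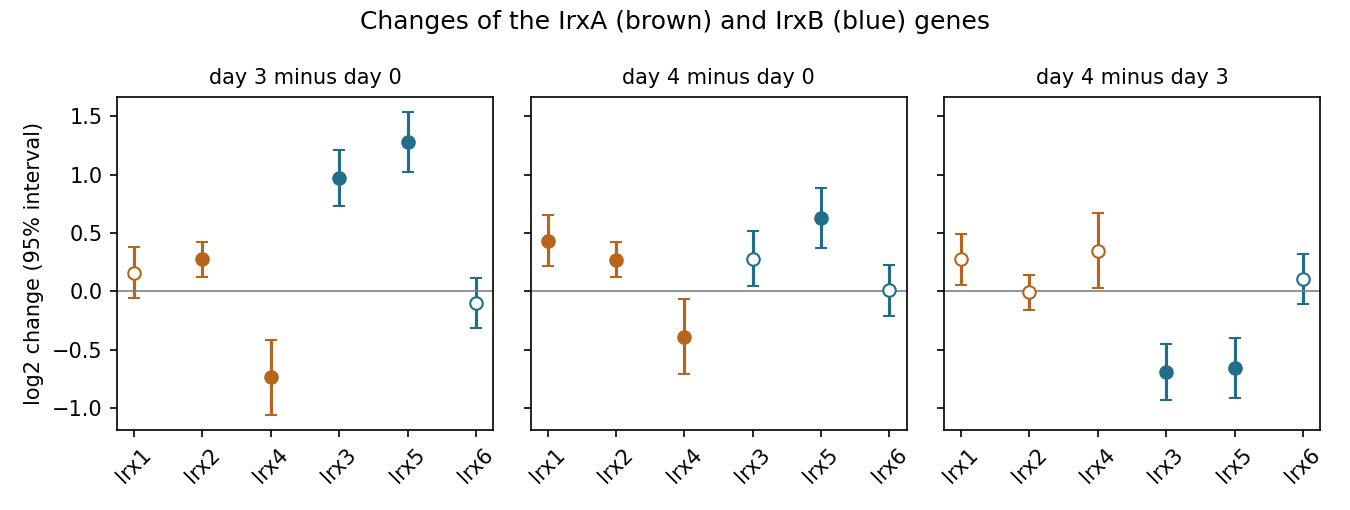
Log2 change of each Iroquois gene between days with its 95% interval from limma, IrxA in brown and IrxB in blue, with filled circles for an adjusted p of 0.05 or below. From day 0 to day 3 Irx5 (1.28) and Irx3 (0.97) were highest and Irx4 (−0.74) lowest, and from day 3 to day 4 Irx3 (−0.69) and Irx5 (−0.66) were the only genes that passed.

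By cluster, 2 of the 3 IrxB genes rose from day 0 to day 3 and 0 fell, while 1 of the 3 IrxA genes rose and 1 fell, where 23.8% of all genes rose and 28.1% fell. The median change was 0.97 in IrxB and 0.16 in IrxA, against −0.05 over all genes. From day 0 to day 4, 1 IrxB gene rose, and 2 IrxA genes rose and 1 fell, where 25.9% of all genes rose and 25.6% fell, with medians of 0.28 and 0.27 against 0.00. From day 3 to day 4, 2 IrxB genes fell and no IrxA gene passed, where 15.8% of all genes rose and 12.2% fell, with medians of −0.66 and 0.28 against 0.05. In all, 4 of 6 genes passed from day 0 to day 3, 4 of 6 from day 0 to day 4 and 2 of 6 from day 3 to day 4, where the shares over all genes were 51.9%, 51.5% and 28.1%. The share of passing members was thus not far from that of all genes at any step, and the genes of a cluster are neighbours and not replicates. The arrays of the 2 days did not overlap for 5 of the 6 genes in each comparison, as for 75.4%, 73.0% and 66.5% of all genes.

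The changes of the paralogous pairs from day 0 to day 3 are given side by side. Irx5 rose by 1.28 (95% interval 1.02 to 1.54) and its IrxA counterpart Irx2 by 0.28 (0.13 to 0.43). Irx3 rose by 0.97 (0.73 to 1.21) and Irx1 changed by 0.16 (−0.06 to 0.38). The intervals did not overlap in either of these pairs. Irx4 fell by 0.74 on the log2 scale, and its counterpart Irx6, within the limits for undetectable genes, allows no comparison. The differences between the genes of a pair were not tested.

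The 1027 olfactory receptor genes measured, which these cells are not known to use, give the scale of change of silent genes. Between day 3 and day 0, 95% of them changed by less than 0.24 in either direction, and between day 4 and day 0 by less than 0.22. Of these genes, 8 rose and 77 fell at day 3, and 29 rose and 33 fell at day 4. The number that passed was 332 at day 3 and 358 at day 4 with centring on the tested genes, and 172 at day 4 with centring on all probe sets, so the set gives a scale of change only under the deposited scaling. The changes of Irx3 (0.97), Irx4 (−0.74) and Irx5 (1.28) at day 3 were well beyond the first limit, whereas those of Irx2 (0.28 and 0.27) were just above both. Irx1 was within the first limit at day 3 (0.16) and beyond the second at day 4 (0.44). The changes of Irx6 were within both limits. Of the 1027 receptor genes, 998 had a mean below 6, where RMA understates differences. The limits may therefore be too narrow for the other Iroquois genes, whose means were above 6.

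The genes on either side of the clusters were taken by their order in the RefSeq table, 5 measured protein-coding genes on each side. Next to IrxB, Fto, whose introns hold enhancers of Irx3, rose by 0.51 at day 3 (adjusted p = 0.000153) and 0.48 at day 4 (0.000210, limma). Rpgrip1l, a cilium gene beyond Fto, rose by 0.57 at day 3 (adjusted p = 0.000768) and fell by 0.43 from day 3 to day 4 (adjusted p = 0.00888), the same order of days as Irx3 and Irx5. On the other side, the matrix protease gene Mmp2 rose by 0.93 and 1.25 (SE 0.05 for both) and the lipid enzyme gene Lpcat2 by 0.58 and 1.09 at days 3 and 4. The cell cycle repressor gene Rbl2, 4 genes before Irx3, had the largest rise of the neighbours, 2.41 at day 4. Near IrxA, the ubiquitin enzyme gene Ube2ql1 (−1.25) and the RNA methyltransferase gene Nsun2 (−1.21) fell most at day 4, and Adamts16, the gene next to Irx1, rose by 0.21 (adjusted p = 0.0485). The transporter gene Slc6a2 had the largest change among neighbours that did not pass at day 4 (−0.16, adjusted p = 0.0515), and passed with centring on the tested genes (−0.31, adjusted p = 0.00203). Its mean of 5.67 with an SD of 0.18 was within the study's limits for undetectable genes. In all, 7 of the 20 neighbours rose and 6 fell at day 4 (median −0.01), and 5 rose and 8 fell at day 3 (median −0.06). For comparison, 25.9% of all genes rose and 25.6% fell at day 4, and 23.8% rose and 28.1% fell at day 3.

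Noncoding transcripts of the IrxB cluster, which were chosen after their values were seen, were also measured. Crnde, transcribed away from the start of Irx5, read 5.65 and 5.42 on the day 0 arrays, 6.12 and 5.78 on those of day 3 and 5.65 and 5.85 on those of day 4. Its rise at day 3 was 0.42 (SE 0.13, limma, adjusted p = 0.0320), and at day 4 it was 0.21 above day 0 (adjusted p = 0.223). The mean of Crnde over the 6 arrays was 5.75 with an SD of 0.24, within the study's limits for undetectable genes. Irx3os, which lies opposite Irx3, read 6.68 to 6.85 at day 0, 6.63 to 6.67 at day 3 and 6.75 to 6.81 at day 4, and changed by −0.12 at day 3 (95% interval −0.28 to 0.05, adjusted p = 0.209). Irx3os was thus not highest at day 3, where Irx3 was.

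**Figure D3:**
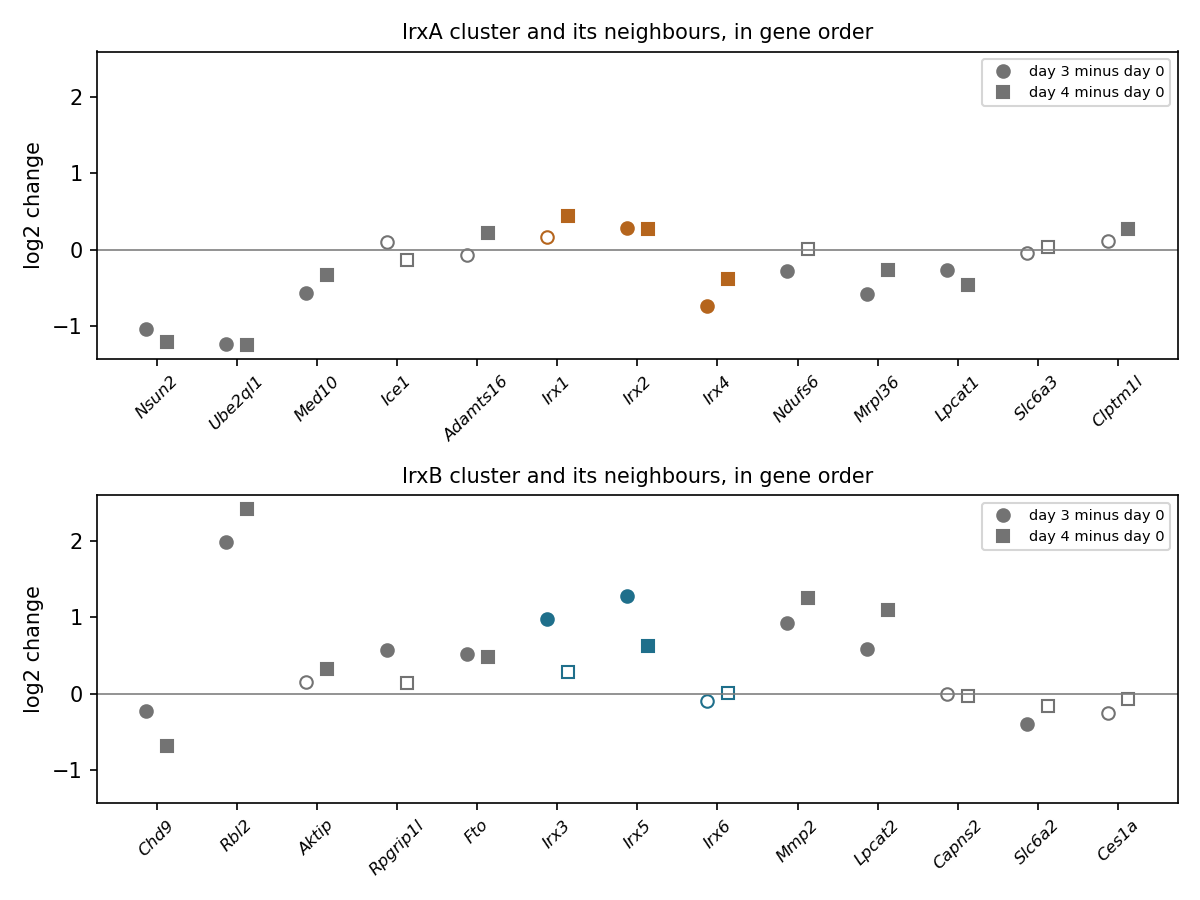
Log2 change from day 0 of the Iroquois genes (coloured) and of 5 measured protein-coding genes on each side (grey), in the order of the genes on the chromosome and not to scale. Circles stand for day 3, squares for day 4, and filled symbols for an adjusted p of 0.05 or below. Irx3 (0.97 and 0.28) and Irx5 (1.28 and 0.63) were higher at day 3 than at day 4, while Mmp2 (0.93 and 1.25) and Lpcat2 (0.58 and 1.09) were higher at day 4.

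Among the other genes of the TALE class, all 11 that were measured passed at day 4, 8 higher and 3 lower (median 0.67, against 0.00 over all genes). In that comparison 51.5% of all genes passed. At day 3, 7 rose, 3 fell and 1 did not pass (median 0.42), where 51.9% of all genes passed. The Hox cofactor genes Meis1 and Meis2 rose far more than any Iroquois gene, by 5.12 (SE 0.06) and 3.87 (SE 0.05) at day 4. Mkx, the relative closest to the Iroquois genes and a regulator of tendon, went from 8.58 ± 0.20 at day 0 to 7.46 ± 0.14 at day 3 and 7.96 ± 0.11 at day 4, changes of −1.12 and −0.62 (limma, adjusted p = 0.000117 and 0.00240). It was thus lowest at day 3, as Irx4 was. Tgif1, a corepressor of RA and TGF-beta responses, fell by 0.46 on the log2 scale at day 3 and by 0.25 at day 4, the latter lost with centring on all probe sets (adjusted p = 0.0891).

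Genes that pattern the neural tube with Irx3 were counted in the same way. Of 23, 6 rose, 2 fell and 15 did not pass at day 4 (median 0.11), and at day 3, 4 rose, 5 fell and 14 did not pass (median −0.12, against −0.05 over all genes). The shares of all genes were 25.9% higher and 25.6% lower at day 4, and 23.8% and 28.1% at day 3. The counts of this list turn on the scaling, with 14 of 23 passing at day 4 with centring on all probe sets and 16 of 23 at day 3 with centring on the tested genes. Olig2, which bounds the Irx3 domain ventrally, read 5.26 to 5.66 on the 6 arrays and did not pass at day 4 (0.15, adjusted p = 0.120). From day 3 to day 4 it rose by 0.33 (limma, adjusted p = 0.0152). Its mean of 5.43 with an SD of 0.16 was within the study's limits for undetectable genes. The hedgehog target gene Gli1 rose by 1.51 at day 3 and 1.55 at day 4, the ligand gene Shh by 0.72 at day 4 (−0.06 at day 3, adjusted p = 0.624). The roof plate and mesoderm gene Msx1 fell by 2.63 on the log2 scale at day 4 and Nkx2-9, a gene of the ventral neural tube, by 0.62. Dbx2 fell by 0.54 on the log2 scale at day 3 (adjusted p = 0.00183) and was at −0.22 at day 4 (adjusted p = 0.0819). The day 4 value was −0.35 without day 4 replicate 2 (adjusted p = 0.00835) and −0.08 without day 4 replicate 1 (0.389), and it passed with the replicate block (0.0472) and with 2 other settings.

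Genes used with Irx3, Irx4 and Irx5 in the heart moved both ways. Of 18 measured, 8 rose, 6 fell and 4 did not pass at day 4 (median 0.00), and 7 rose, 6 fell and 5 did not pass at day 3 (median −0.13). Over all genes, 25.9% rose and 25.6% fell at day 4, and 23.8% rose and 28.1% fell at day 3. Kcnd2, a potassium channel gene that Irx5 represses in the ventricle, read 5.81 and 6.07 on the day 0 arrays, 6.94 and 7.51 on those of day 3 and 8.56 and 8.30 on those of day 4, a rise of 1.29 at day 3 and of 2.49 at day 4. The connexin genes that Irx3 regulates in the conduction system moved in opposite directions, Gja1 by −0.75 and Gja5 by 0.72 at day 3. Tbx5 rose by 3.77 at day 4, and Hand1 (−5.02) and Tbx20 (−3.32) fell. The ventricular light chain gene Myl2 fell by 0.23 on the log2 scale at day 4 (adjusted p = 0.0104), and Myl3 was at −0.08 (adjusted p = 0.694). Myl2 was dim, and its mean of 5.64 with an SD of 0.13 was within the study's limits for undetectable genes.

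In the nephric and gonadal list 6 of 15 genes rose and 3 fell at day 4 (median 0.13), and 7 rose and 3 fell at day 3 (median 0.09). The rises were led by Wt1 (4.52) and Osr1 (3.90), both of intermediate and lateral mesoderm, and the falls by Fst (−2.37) and the Notch ligand gene Jag1 (−0.82). Lhx1 rose by 0.79 at day 3 (adjusted p = 0.00299) and did not pass at day 4 (−0.38, adjusted p = 0.0665). With the replicate number as a block the day 4 value passed (adjusted p = 0.00435), as it did with 5 other settings. Of the 13 limb genes 6 rose and 5 fell at day 4 (median 0.12) and again at day 3 (median −0.03), with rises of Tbx5 and Alx4 (1.26) and falls of the zinc finger factor genes Sall4 (−4.21), also a gene of pluripotent cells, and Sall1 (−3.19). Beside both lists, 25.9% of all genes rose and 25.6% fell at day 4, and 23.8% rose and 28.1% fell at day 3. Gli3, which acts with Irx3 and Irx5 in limb patterning, rose by 0.72 at day 3 (adjusted p = 6.02e-05) and was 0.12 above day 0 at day 4 (adjusted p = 0.168). Grem1 had the largest change of the limb genes that did not pass at day 4 (−0.12, adjusted p = 0.248, and −0.23 with 0.0396 without day 4 replicate 2).

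Markers of other cell types are given beside these changes, although their levels do not measure the cell composition of the EBs. The mean level of 8 pluripotency markers was 8.73 to 8.77 at day 0, 6.60 to 6.64 at day 3 and 6.54 to 6.69 at day 4. The mean of 6 mesenchyme markers was 7.40 to 7.58, 9.24 to 9.33 and 9.57 to 9.68, and 5 of the 6 rose and 1 fell at both days. Among all genes, 25.9% rose and 25.6% fell at day 4, and 23.8% rose and 28.1% fell at day 3. The mean of 4 nephric markers was 6.62 to 6.65, 7.60 to 7.79 and 7.21 to 7.37. Of these, Lhx1 and Emx2 rose at day 3 (0.79 and 3.34), while Pax2 (0.09, adjusted p = 0.30) and Pax8 (0.03, adjusted p = 0.782) did not pass. Only Emx2 (5.39, 8.73 and 8.10) had the same order of days as Irx3 and Irx5. Lhx1 was lower at day 4 than at day 0 (8.20, 8.99 and 7.82). Pax2 (6.42, 6.51 and 6.59) and Pax8 (6.53, 6.56 and 6.66) were highest at day 4. The means of 8 neural progenitor markers (7.85 to 7.87, 7.43 to 7.46 and 7.61 to 7.63) and of 6 cardiomyocyte markers (7.36 to 7.39, 7.09 to 7.15 and 7.21 to 7.27) were lowest at day 3, but their members moved both ways. At day 3, Sox2 (−1.88, also a pluripotency marker) and Fabp7 (−1.69) fell while Nes (0.50) and Pax6 (0.17) rose, and Actc1 (−1.19) fell while Tnnt2 (0.65) rose. The means of 6 neuron markers (7.41 to 7.46, 7.42 to 7.45 and 7.59 to 7.68) and of 6 endoderm markers (7.27 to 7.37, 7.21 to 7.49 and 7.34 to 7.40) hide opposite changes in the same way. At day 3 these were Dcx (2.49) and Stmn2 (−1.84) among the neuron markers, and Apoa1 (1.73) and Cdh1 (−2.11) among the endoderm markers. The part of any of these cell types in the changes of the Iroquois genes was not tested.

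The genes whose values ran most like those of an Iroquois gene were found by the root mean square (RMS) distance of the 6 array values, each gene centred on its own mean. The genes nearest to Irx5 were Ntrk2, which encodes the receptor of a neurotrophin (RMS distance 0.07), the GABA receptor gene Gabbr1 (0.09) and Treml2 (0.09). Ntrk2 went from 5.70 at day 0 to 7.10 at day 3 and 6.36 at day 4. Those nearest to Irx3 were Crybg3 (0.07), the protease gene Tll1 (0.08) and Lhx9 (0.09), a LIM homeobox gene of gonad, limb and brain, which went from 6.34 to 7.36 and 6.74. Those nearest to Irx4 were Ndufa4l2 (0.06), the claudin gene Cldn7 (0.07) and Doc2a (0.08). Within a distance of 0.2 lay 119 genes for Irx5, 211 for Irx3 and 1036 for Irx4. Irx3 and Irx5 were 0.25 apart, and 294 genes were nearer to Irx5 than Irx3 was, so their likeness to each other was not closer than that to many other genes. For the smaller changes of Irx1 and Irx2, 6195 and 9831 genes lay within 0.2. These 2 counts take in genes that did not change, because Irx1 and Irx2 departed from their own means by an RMS of only 0.1992 and 0.1365. The nearest were Dcaf12l2 (0.03), Uck1 (0.04) and Vipr1 (0.04) for Irx1 and the mitochondrial gene ND3 (0.01), Wbp1l (0.02) and Blvrb (0.03) for Irx2. With 3 days and 6 arrays, such likeness describes the order of the days.

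**Figure D4:**
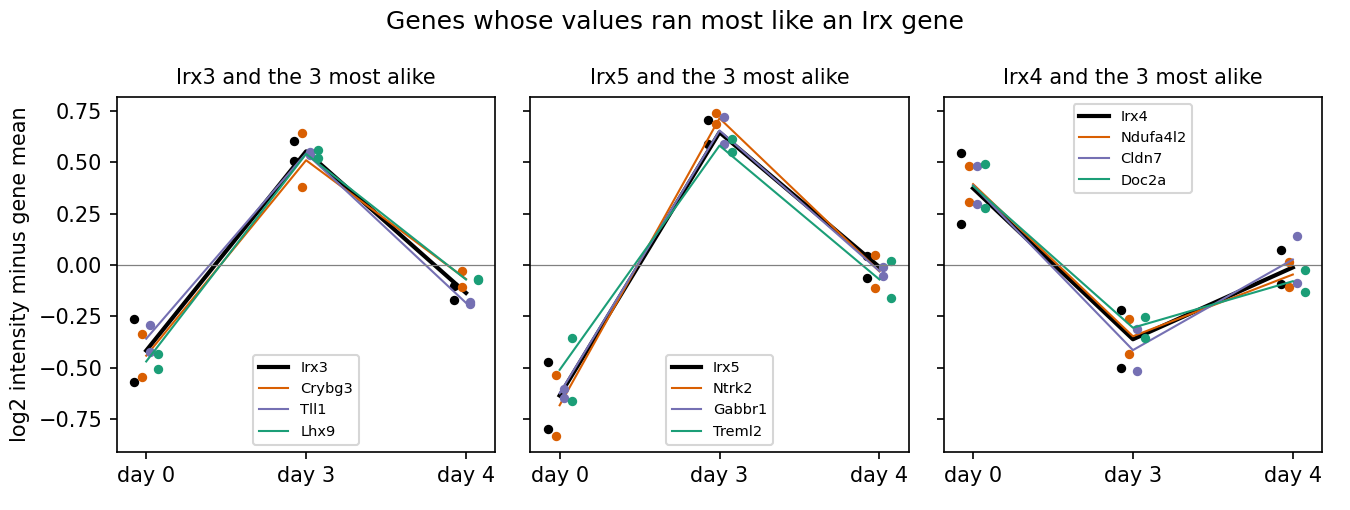
Log2 intensity minus the mean of the gene over the 6 arrays for Irx3, Irx5 and Irx4 (black) and the 3 genes with the smallest RMS distance to each, with points for the arrays and lines through the means of the days. The genes in the first 2 panels were highest at day 3 and those in the third were lowest, with RMS distances of 0.06 to 0.09.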

How the data were processed

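Per the labels and methods, the authors normalized the Affymetrix Mouse Gene 1.0 ST arrays by RMA (background correction, quantile normalization and probe set summary) in Partek and deposited log2 intensities. The Partek version is stated in the methods for RNA-seq only. For the arrays, neither a version nor a build was given in the sources used here. Quantile normalization hides changes of total RNA, and RMA understates changes of dim genes. The table held 35557 probe sets, and 21789 had 1 symbol in the platform annotation. Of these, 21698 matched RefSeq (GRCm38.p6) by gene number. The brightest probe set per gene was kept, which gave 19938 genes. In R 4.3.3, limma 3.58.1 (lmFit and eBayes, two-sided) was fitted to all 6 arrays with a mean per day, with 3 residual and 4.07 prior degrees of freedom, and was tested on simulated data. Precision is limited by the 2 arrays per day, since intensities carry no count of reads. The Iroquois genes and the lists were chosen with earlier results of these data known. Named list genes were the 2 largest rises and 2 largest falls at day 4 and the largest change that did not pass. Others, such as Olig2, Gli3, Gja1, Gja5, Myl2, Fto, Rpgrip1l, Lpcat2 and Adamts16, were chosen after their values were seen. Genes most alike were the 3 nearest by RMS distance, without predicted genes, olfactory receptors or small RNAs. The alternatives were other centring, cyclic loess, an intensity trend with robust moderation, a filter on dim genes, a replicate block, all probe sets, the mean of probe sets, only the days compared, an adjusted p of 0.01 and leaving out each array.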

Additional observations from a re-analysis of the deposited data

How the results depend on the processing

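Each value of an Iroquois gene was recomputed under up to 16 alternatives, 1 of which, centring on the median of the tested genes, was chosen after seeing the data. Of 285 such values, 255 kept their direction and their side of the threshold, 11 lost the call, 11 gained it and 8 changed sign. The changes of Irx5 in all 3 comparisons, of Irx3 and Irx4 from day 0 to day 3, of Irx3 from day 3 to day 4 and of Irx1 from day 0 to day 4 kept direction and call under every alternative run. The number of Iroquois genes that passed from day 3 to day 4 was 2, and 4 with centring on all probe sets or with an intensity trend and robust moderation, where Irx1 and Irx4 were added. Leaving out 1 array gave 3 to 4 genes from day 0 to day 3, 2 to 4 from day 0 to day 4 (2 without day 4 replicate 2) and 2 to 3 from day 3 to day 4. Over all genes, 5593 passed from day 3 to day 4, 10210 with centring on all probe sets, 2667 at an adjusted p of 0.01 and 2728 to 5276 without 1 array (2728 without day 3 replicate 1, 3650 without day 3 replicate 2 and 3005 without day 4 replicate 2). The cause was not tested. Values that did not pass changed sign for Irx6 at day 4 (−0.137 with centring on the tested genes, −0.0016 with cyclic loess and −0.123 to 0.142 without 1 array) and at day 3 (−0.230 to 0.0344 without 1 array), and for Irx2 between day 4 and day 3 (0.124 with centring on all probe sets and −0.0452 to 0.0338 without 1 array). They also did so for Myl3 at day 4 (0.0251 with centring on all probe sets and −0.217 to 0.0539 without 1 array) and for Shh at day 3 (−0.154 to 0.0324 without 1 array). Irx6 was left out by the filter on dim genes and has no value there. Deviations of same-numbered arrays from their day means correlated at 0.03, 0.06 and 0.08 across genes, so the numbers were not taken as pairs. With the replicate number as a block, 4, 4 and 3 Iroquois genes passed in the 3 comparisons, the addition being Irx4 from day 3 to day 4 (0.35, adjusted p = 0.0119). Among the other named genes the block also added Lhx1 (adjusted p = 0.00435) and Dbx2 (0.0472) at day 4.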
